A study of Mus musculus with 24 samples.

Results

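MicroRNAs that lie within imprinted loci were compared between 2 pooled mouse RNA references. On the one-color Agilent microarray, every unstarred mouse miRNA named miR-335, miR-483, miR-675, miR-296 or miR-298, with or without an arm suffix, was taken, which gave 8 of the 566 mouse miRNAs on the array. They belong to 4 imprinted loci: miR-335-5p and miR-335-3p to Mest, miR-483 to Igf2, miR-675-5p and miR-675-3p to H19, and miR-296-5p, miR-296-3p and miR-298 to Nespas. The starred arm of the miR-483 hairpin, miR-483*, was also measured and is described beside it, outside the 8. Both references were mixed from commercially prepared mouse total RNA that keeps the small fraction, with each tissue giving the same share. Reference 1 held gonads of both sexes (testicle and ovary) and embryos of 10 to 12 days, and Reference 2 held heart, lung and liver. Of the arrays hybridized on 1 slide, 4 are described here, 2 aliquots of each reference. They were drawn at random for the study from a larger set, of which a poor array had been dropped, and the others were not analysed here. Since both aliquots of a reference were drawn from the same RNA pool, their spread is technical, and so is each p-value computed from it. The labels give no strain, sex or number of animals for the tissues. In such mixed pools, fewer cells that make a miRNA and less of it per cell cannot be told apart, and neither can the tissues of a pool.

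An imprinted gene is expressed mainly from the copy inherited from one parent, and many imprinted genes are most active in the embryo and placenta and are turned down after birth. Mest and Igf2 are expressed from the paternal copy, and Igf2 encodes a fetal growth factor. H19 is a maternally expressed long noncoding RNA from which miR-675 is cut, and Nespas is a paternally expressed antisense RNA of the Gnas locus. A miRNA hairpin can yield a mature miRNA from each of its arms, called 5p and 3p, and a star marks the arm once held to be the lesser product. The seed, the bases from position 2 to position 8, does most of the pairing of a miRNA with its target messages.

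The mature sequences are printed because they show that these miRNAs form no seed family and because they differ widely in base composition, which bears on how strongly a miRNA pairs with an array probe. They come from RefSeq on build GRCm38.p6, in which 8 of the 8 miRNAs were matched, and run from 5′ to 3′ with the seed in capitals. The array names miR-483 and miR-298 carry no arm and were taken here as miR-483-3p and miR-298-5p, which the files do not state.
miR-335-5p: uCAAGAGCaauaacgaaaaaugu
miR-335-3p: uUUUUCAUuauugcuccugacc
miR-483: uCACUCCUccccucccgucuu
miR-675-5p: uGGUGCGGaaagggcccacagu
miR-675-3p: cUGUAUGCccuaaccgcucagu
miR-296-5p: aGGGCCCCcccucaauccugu
miR-296-3p: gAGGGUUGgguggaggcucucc
miR-298: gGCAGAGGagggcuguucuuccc

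The 8 seeds were all different, and none of the 1738 mature miRNAs in the RefSeq table outside the 8 shared one of them. The 2 miR-335 arms were poor in G and C, at 30.4% for miR-335-5p and 36.4% for miR-335-3p. The other 6 held from 54.5% in miR-675-3p to 68.2% in miR-296-3p. The Mir335 hairpin lies at chr6:30741299-30741396 on the plus strand, within Mest. The Mir483 hairpin lies at chr7:142654924-142654996 on the minus strand within Igf2, and the Mir675 hairpin at chr7:142577064-142577147 on the minus strand within H19, with 77776 bases between them. The Mir296 hairpin, at chr2:174267047-174267125, and the Mir298 hairpin, at chr2:174267504-174267585, are both on the minus strand with 378 bases between them. RefSeq places neither inside an annotated gene, and the nearest one beside them is Gnasas1, of which Nespas is a synonym.

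The arrays held 11540 miRNA spots each and no saturated spot. A miRNA was counted as well above background on an array where at least 1 of its probes carried the scanner software's flag of that name on at least 50% of its spots, which gave 234 and 244 mouse miRNAs in Reference 1 and 166 and 162 in Reference 2. The negative control spots had median signals of 48 and 44 in Reference 1 and 47 and 49 in Reference 2, in scanner units. The tissue labels were checked against markers. Of 8 miRNAs of liver, heart, endothelium and blood, 8 were lower in Reference 1, and of 11 of male germ cells, gonad, Hox clusters and neural tissue, 10 were higher and 1, miR-202-5p, was lower. The log2 difference of miR-202-5p was -0.06, and it was well above background on no array.

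In the fit over all mouse miRNAs, 3 of the 8 imprinted-locus miRNAs were higher in Reference 1 (miR-296-5p, miR-335-5p and miR-675-3p), 2 were lower (miR-298 and miR-335-3p), and 3 did not pass the test (miR-483, miR-675-5p and miR-296-3p). Over the whole array 58.1% of the miRNAs passed, with 29.9% higher and 28.3% lower. The share that passed among the 8, 5 of 8 or 62.5%, lies near that of the array, and the list as a whole did not stand apart. Of all miRNAs that passed, 51.4% were higher in Reference 1, against 35.7% after median centering of each array and 69.2% on unnormalized values, and the number of lower imprinted-locus miRNAs was 4 and 0 under those settings. The median log2 difference, Reference 1 minus Reference 2, was 0.0035 over the 8 and -0.0069 over the 566. The differences of miR-296-5p and miR-335-5p exceeded those of the other 6 and were the ones that kept their sign and their call under each of the 18 alternatives tried. Of the 8, only these were well above background on all 4 arrays, miR-298 was so in Reference 1 alone, and the other 5 on no array.

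**Figure D1:**
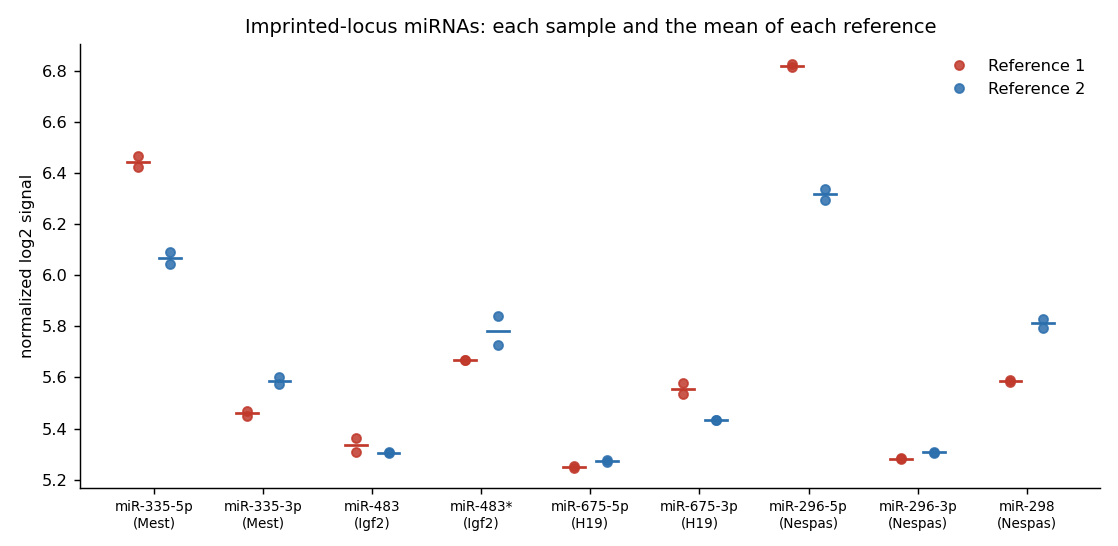
Normalized log2 signal (vertical axis) of the 8 imprinted-locus miRNAs and of miR-483*, with the host locus under each name. Points are the 2 samples of Reference 1 (red) and of Reference 2 (blue) and bars are their means. miR-296-5p and miR-335-5p lie higher in Reference 1, and miR-298 higher in Reference 2. The samples of the references overlap in none of the miRNAs drawn, whether or not they passed the test.

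At the Nespas locus, miR-296-5p had normalized log2 signals of 6.82 and 6.83 in Reference 1 and of 6.30 and 6.34 in Reference 2. Both samples of Reference 1 lay above both of Reference 2, with means of 6.82 ± 0.008 (SD, n = 2) and 6.32 ± 0.03 (SD, n = 2). The log2 difference was 0.50 (SE 0.04, limma, adjusted p = 5.59e-13), or 1.42-fold, and stood 64th from the top of the 566. It is measured by 2 probes of 10 spots each, and all 20 spots were well above background on every array. The probe A_54_P4376 gave 1.56-fold and the probe A_54_P2422 gave 1.29-fold. The median spot had raw signals of 132.8 and 134.2 in Reference 1 against 65.5 and 69.2 in Reference 2. These values include the background, for which the negative control medians of 47 and 49 in Reference 2 give the scale. In the scanner software's total gene signal, which has the background subtracted and is summed over probes, miR-296-5p read 111 and 119 in Reference 1 and 27.6 and 29.3 in Reference 2. After scaling each array to its 75th percentile, that signal gave 3.14-fold and the background-subtracted spot signal gave 3.05-fold (adjusted p = 0.000328), so the direction was the same and the size changed with the subtraction of background.

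The other arm of the hairpin, miR-296-3p, had log2 signals of 5.28 and 5.28 in Reference 1 and 5.31 and 5.31 in Reference 2. Its difference of -0.03 (SE 0.02, adjusted p = 0.204) did not pass the test, and 0 of its 4 probes did. Its median spot had raw signals of 39.8, 37.0, 39.2 and 41.0, below the negative control median on every array, and no spot was well above background. After median centering of each array it was called lower, at -0.10 (adjusted p = 8.41e-07). On the arrays, the log2 difference between the references was larger in miR-296-5p than in miR-296-3p by 0.53 (SE 0.04, adjusted p = 2.82e-20), and by 1.05 on unnormalized values and 1.61 with the background-subtracted spot signal. All 4 samples of miR-296-3p were at the floor set for the background-subtracted signal, so the 1.61 is that of miR-296-5p alone. With the 3p arm not above background, the arm difference is no measure of whether the 2 miRNAs themselves differed in ratio.

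The neighbouring miR-298 had normalized log2 signals of 5.58 and 5.59 in Reference 1 and 5.80 and 5.83 in Reference 2, with means of 5.59 ± 0.005 (SD, n = 2) and 5.81 ± 0.02 (SD, n = 2). The samples did not overlap, and the difference of -0.23 (SE 0.03, adjusted p = 5.10e-08) made it 1.17-fold higher in Reference 2. All 4 of its probes were lower in Reference 1. Its raw values did not show this order. The median spot had raw signals of 53.8 and 50.5 in Reference 1 and 51.0 and 51.8 in Reference 2. The scanner software's total gene signal was 14.4 and 14.0 in Reference 1 and 8.53 and 6.65 in Reference 2, and its detection flag was set on 3 of the 4 arrays, all but Reference 2 replicate 2. The probe A_54_P2435 alone was well above background, and only in Reference 1, where its raw signals of 67.0 and 61.0 stood against 49.0 and 49.0 in Reference 2. After normalization the same probe was lower in Reference 1 by 0.10 on the log2 scale (adjusted p = 0.0207). Without normalization the miR-298 difference was 0.02 and with the total gene signal 0.55, neither past the test, and with median centering it was -0.02 and also did not pass (adjusted p = 0.558), so no direction for miR-298 is given apart from the normalization.

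Within Mest, miR-335-5p had normalized log2 signals of 6.47 and 6.42 in Reference 1 and of 6.09 and 6.04 in Reference 2. The samples of the references did not overlap, and their means were 6.44 ± 0.03 (SD, n = 2) and 6.07 ± 0.03 (SD, n = 2). The log2 difference was 0.38 (SE 0.04, adjusted p = 9.49e-11), or 1.30-fold, and stood 78th from the top of the 566. Its 2 probes were unlike. The probe A_54_P2688 had raw signals of 198 and 194 in Reference 1 and 93.5 and 93.0 in Reference 2, was well above background on every array, and gave a log2 difference of 0.66 (SE 0.04), or 1.58-fold. The probe A_54_P2687 had raw signals of 46.0 and 43.5 in Reference 1 and 40.2 and 41.2 in Reference 2, was well above background on none, and gave 0.16 (SE 0.03). With 10 spots on each probe, the median over the 20 spots lies between a bright and a dim set. When spots flagged as outliers were left out, 9 bright and 10 dim spots remained, the median fell on a dim spot, and the difference was 0.13, or 1.09-fold. The total gene signal read 98.0 and 100.2 in Reference 1 and 29.7 and 26.3 in Reference 2, or 2.76-fold after scaling.

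The 3p arm, miR-335-3p, had log2 signals of 5.47 and 5.45 in Reference 1 and 5.57 and 5.60 in Reference 2. It was lower in Reference 1 by 0.13 (SE 0.03, adjusted p = 5.81e-05), and 3 of its 4 probes were. Its median spot had raw signals of 46.2, 42.2, 47.5 and 48.5, close to the negative control median of each array, and the scanner software set its detection flag on no array. Without normalization the difference was -0.12 and did not pass the test (adjusted p = 0.186). The log2 difference was larger in miR-335-5p than in miR-335-3p by 0.50 (SE 0.04, adjusted p = 7.69e-20), by 0.25 without outlier-flagged spots, by 0.70 on unnormalized values and by 2.86 with the background-subtracted spot signal. As for miR-296, the 3p arm was not above background, and 2 of its samples were at the floor set for the background-subtracted signal.

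**Figure D2:**
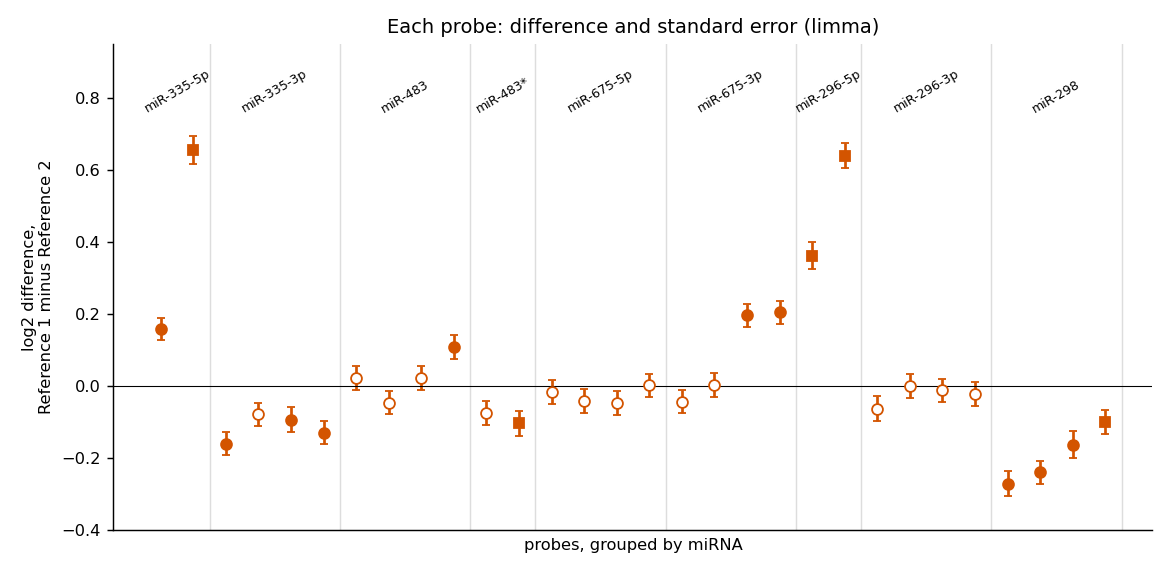
Log2 difference of each probe, Reference 1 minus Reference 2 (vertical axis), with its standard error from limma, probes side by side and grouped by miRNA (horizontal axis). Filled symbols passed the test at an adjusted p under 0.05, and squares mark probes well above background on 1 or more arrays. The bright probe of miR-335-5p, at 0.66, and both probes of miR-296-5p stand above all others.

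Of the 28 probes of the 8 miRNAs, 7 were higher in Reference 1, 7 were lower and 14 did not pass the test. Over all 1672 mouse probes 40.8% passed, with 21.3% higher and 19.6% lower. The 7 higher probes were both probes of miR-335-5p and of miR-296-5p, 2 of the 4 of miR-675-3p and 1 of the 4 of miR-483. The 7 lower ones were all 4 of miR-298 and 3 of miR-335-3p, and no miRNA had called probes in both directions.

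From H19, miR-675-3p had log2 signals of 5.58 and 5.53 in Reference 1 and 5.44 and 5.43 in Reference 2. The samples did not overlap, with means of 5.56 ± 0.03 (SD, n = 2) and 5.43 ± 0.0004 (SD, n = 2), and the difference of 0.12 (SE 0.02, adjusted p = 9.11e-05) was 1.09-fold. The probes A_54_P1793 and A_54_P1794 gave 0.20 and 0.21, while A_54_P1791 and A_54_P1792 gave -0.04 and 0.004 and did not pass. The total gene signal was 3.58 and 4.16 in Reference 1 and -2.10 and -3.20 in Reference 2, that is, below the background there. The detection flag was set on Reference 1 replicate 2 alone, and no spot was well above background. Without normalization the difference was 0.13 and did not pass (adjusted p = 0.143). The 5p arm, miR-675-5p, had log2 signals of 5.25 and 5.25 in Reference 1 and 5.27 and 5.28 in Reference 2, a difference of -0.02 (SE 0.02, adjusted p = 0.245), and was detected on no array. With median centering it was called lower, at -0.10 (adjusted p = 5.13e-07). The ratio of miR-675-5p lay below that of miR-675-3p by -0.14 (SE 0.04, adjusted p = 0.000506), which no longer passed without Reference 1 replicate 1 (-0.12, adjusted p = 0.0522).

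From Igf2, miR-483 had log2 signals of 5.31 and 5.36 in Reference 1 and 5.30 and 5.31 in Reference 2. The difference of 0.03 (SE 0.02, adjusted p = 0.208) did not pass the test. Here too the samples of the references did not overlap, as in every imprinted-locus miRNA, so the absence of overlap does not mark out the called ones. The median spot had raw signals of 40.5, 39.2, 39.2 and 41.0, below the negative control median on every array, and no spot was well above background. Only the probe A_54_P2791 passed, at 0.11 (adjusted p = 0.0139), and the other 3 did not.

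The starred arm miR-483* was brighter against background in Reference 1 and yet lower there after normalization. Its total gene signal was 18.1 and 17.0 in Reference 1 and 5.24 and 4.97 in Reference 2, and it was detected and well above background in Reference 1 alone. Its normalized log2 signals were 5.67 and 5.67 in Reference 1 and 5.73 and 5.84 in Reference 2, a difference of -0.11 (SE 0.03, adjusted p = 0.00348). That call was lost without Reference 2 replicate 2 (-0.06, adjusted p = 0.0915), with normexp background correction (-0.03, adjusted p = 0.453) and in the deposited values (0.0038, adjusted p = 0.915). The difference was 0.16 with median centering of each array and 0.20 without normalization, both past the test in the opposite direction. It also passed in that direction with the background-subtracted spot signal (1.25, adjusted p = 0.0171) and the total gene signal (1.42, adjusted p = 0.00263). The direction of miR-483* thus changed with the signal and normalization used, and unlike miR-298 it passed the test in both directions. The difference in ratio between miR-483 and miR-483*, 0.14 (SE 0.04, adjusted p = 0.000617), turned to -0.21 with median centering and also without normalization. It did not pass in the deposited values (0.02, adjusted p = 0.529), with normexp (0.04, adjusted p = 0.366), without Reference 1 replicate 2 (0.12, adjusted p = 0.0734), without Reference 2 replicate 2 (0.09, adjusted p = 0.109) or with the replicate number as a block (adjusted p = 0.0766).

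In all, the test of the difference between arms was passed by 4 of the 4 hairpins with both arms on the array, where 67.1% of the 164 such hairpins of the array passed it. For 2 of them, miR-335 and miR-296, the ratio of Reference 1 to Reference 2 was higher in the 5p arm, for miR-675 it was lower in the 5p arm, and for miR-483 it was higher in the unstarred arm, against 36.6% of hairpins higher and 30.5% lower in the 5p or unstarred arm. In each of the 4, at least 1 arm was well above background on no array, and for miR-675 neither arm was on any. These differences thus rest in part, and for miR-675 wholly, on values close to the background. They describe the probes, not the RNA of both arms.

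The median difference was not the same at all levels of brightness. Among the 82 mouse miRNAs with a mean normalized log2 signal between 6 and 7, where miR-296-5p and miR-335-5p lie, the median difference was 0.25 after normalization and 0.76 without it. The differences of miR-296-5p and miR-335-5p lay above that median after normalization. Without it miR-296-5p, at 0.99, lay above and miR-335-5p, at 0.58, below. Among the 397 with a mean under 6, which hold the other 6 imprinted-locus miRNAs, the medians were -0.0073 and -0.03, and among the 87 with a mean above 7 they were -0.15 and 0.09. The part of brightness in the differences of single miRNAs was not tested.

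**Figure D3:**
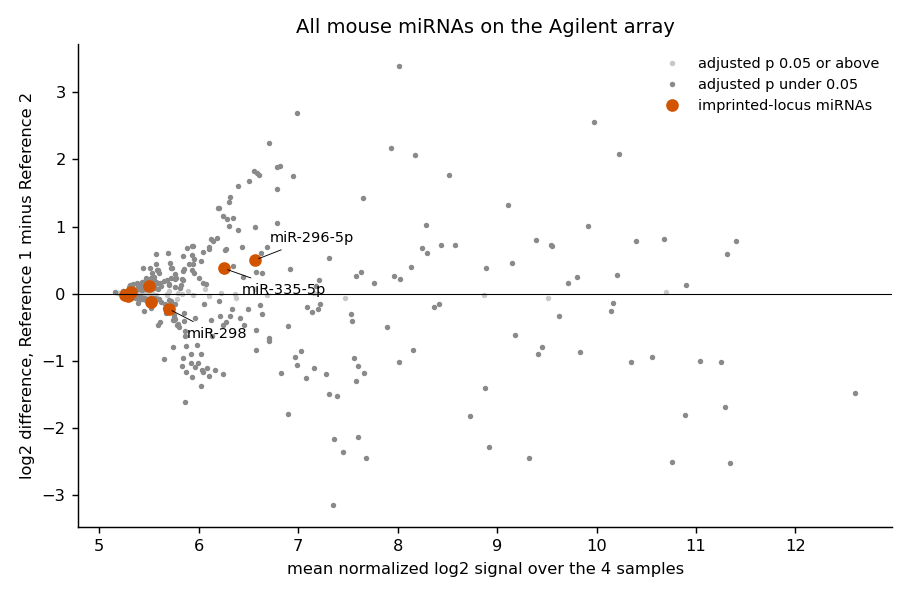
Log2 difference, Reference 1 minus Reference 2 (vertical axis), against the mean normalized log2 signal over the 4 samples (horizontal axis) for the 566 mouse miRNAs, with those at an adjusted p under 0.05 in darker gray and the 8 imprinted-locus miRNAs in orange. The 8 lie between -0.23 and 0.50, within a range over all miRNAs of -3.14 to 3.39.

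**Figure D4:**
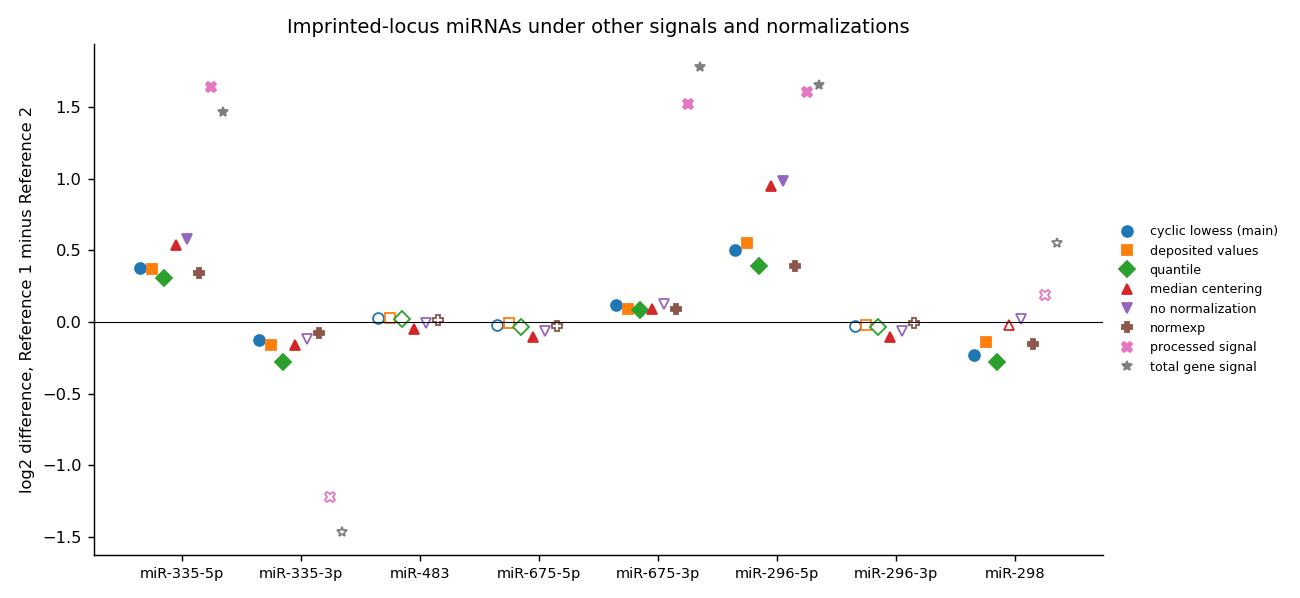
Log2 difference, Reference 1 minus Reference 2 (vertical axis), of the 8 imprinted-locus miRNAs (horizontal axis) under 8 choices of signal and normalization, filled where the adjusted p was under 0.05. miR-335-5p and miR-296-5p stay above 0 and filled throughout, while miR-298 lies on both sides of 0. Settings in which all 4 samples were at the floor of the background-subtracted signal are not drawn, and in miR-675-3p and miR-335-3p some samples were at it.

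The mean log2 signal had a median of 5.51 over the 8 miRNAs and of 5.52 over all 566, so the plot of differences against signal shows them among the many dim miRNAs of the array. The plot of settings shows which of their differences change with the treatment of background. In the background-subtracted spot signal all 4 samples of miR-483, miR-675-5p and miR-296-3p were at the floor, as were 2 samples of miR-675-3p and 2 of miR-335-3p, so those miRNAs have no measured ratio on that scale.

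Other imprinted miRNAs on the array give a setting for these values. Of 71 miRNAs of the Dlk1-Dio3 region, the large maternally expressed miRNA cluster of chromosome 12, 46 were higher in Reference 1 and 4 lower, with a median log2 difference of 0.15. A further 24 carry names of the miRNA families of the Sfmbt2 intron, a paternally expressed cluster. Of these 24, 10 were higher and 0 lower at an adjusted p under 0.05 in limma, with a median of 0.03. Both lists were drawn by miRNA name, and the genome position of each miRNA was not checked. Unlike the 8, they include starred arms. On at least 1 array, 39 of the Dlk1-Dio3 list were well above background, among them 36 of the higher and 1 of the lower. For the Sfmbt2 list this held for 5, among them 4 of the higher, and for 261 of the 566 mouse miRNAs. Over the whole array 29.9% were higher and 28.3% lower, against 64.8% and 5.63% of the Dlk1-Dio3 list and 41.7% and 0% of the Sfmbt2 list. The corresponding counts for the 8 miRNAs of Mest, Igf2, H19 and Nespas, 3 higher and 2 lower (37.5% and 25%), are given side by side with these as a description, without a test of the lists against each other.

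The miRNAs whose 4 values, each miRNA centered on its own mean, lay closest to those of the called and well above background members were found among 260 candidates by Euclidean distance over the 4 samples. For miR-296-5p these were miR-20b and miR-148a, with log2 differences of 0.53 and 0.45. For miR-335-5p they were miR-337-5p, of the Dlk1-Dio3 region, and miR-18a, with differences of 0.37 and 0.41. For miR-298 they were miR-429 and miR-98, with differences of -0.23 and -0.19. With 2 samples in each of 2 groups, such likeness is mostly likeness in the size of the difference.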

How the data were processed

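The data are 4 one-color Agilent miRNA arrays, 2 per reference. Per the study's methods, 4 arrays were hybridized with each reference, 1 array failed the scanner software's quality metrics, and 2 per reference were picked at random. The rest were not analysed here. The other platforms of the series were not analysed here. The authors' scanner files, made with Agilent Feature Extraction 9.5.3.1 per the submitters' processing notes, hold spot intensity, not yet normalized. The authors deposited normalized log2 values as well, used here as an alternative. Over 560 shared miRNAs their Pearson correlation with the recomputed values was at least 0.999 in each sample, with column medians of 5.48 to 5.49. All per-sample columns of these arrays were mapped to samples, with 0 left over.

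Following the study's methods, the median signal of each spot was kept without background subtraction, log2 transformed and normalized by pairwise cyclic lowess over all non-control spots, and each miRNA was given the median of its spots. References were compared with limma 3.58.1 (R 4.3.3) with an intensity trend, with Benjamini-Hochberg adjustment over the 566 mouse miRNAs and a threshold of 0.05. Probes (1672) and the differences between arms of a hairpin (164) were fitted likewise. The precision is limited by 2 arrays per reference. Outlier-flagged spots, 2.10% to 2.71% of spots per array, were kept. The scaled background-subtracted signals had a floor of 1.

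The members and lists were chosen with earlier results of these data known. Named miRNAs were the members, their starred arms, any miRNA sharing a seed, and the 2 nearest patterns of each called member that was well above background. The total gene signal, the lowess over mouse spots alone and the brightest probe were alternatives chosen after the data were seen. The labels do not say whether same-numbered samples share anything beyond the number.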

Additional observations from a re-analysis of the deposited data

How the results depend on the processing

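The counts of higher miRNAs moved by no more than 1.5 times, and miR-296-5p (0.39 to 1.65) and miR-335-5p (0.13 to 1.64) passed the test under each of 18 alternatives. The number of lower miRNAs, 2, was 0 in unnormalized data and 4 with median centering. It was 0 with the background-subtracted processed signal and 0 with the total gene signal, where only 5 of the 8 were tested. There miR-335-3p stayed negative, at -1.22 and -1.46, without passing the test and with samples at the floor. When only miRNAs well above background were tested, the number was 1, since 3 of the 8 then remained. Under that filter 0 hairpins had both arms left. The number of lower probes, 7, was 14 with median centering and 0 with no normalization. Leaving out each sample gave 3 higher and 2 lower miRNAs each time, 6 to 7 higher probes, 4 to 7 lower probes (4 without Reference 1 replicate 2) and 3 to 4 hairpins.

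Some directions turned. The miR-483 difference was -0.049 with median centering (adjusted p = 0.0268) and -0.0089 with no normalization. The miR-298 difference was 0.19 with the processed signal, 0.020 with no normalization and 0.55 with the total gene signal. The miR-483* difference was 0.20 with no normalization, 0.16 with median centering, 1.25 with the processed signal, 1.42 with the total gene signal and 0.0038 in the deposited values. The miR-483 arm difference was -1.25 with the processed signal, -0.21 with median centering and -0.21 with no normalization. Under the processed signal, miR-483 was at the floor. With the brightest probe, miR-296-3p gave 0.0010 and miR-675-5p gave 0.0030. Calls also changed without a change of sign. With median centering miR-296-3p and miR-675-5p were called lower, and miR-298 lost its call. Also called lower in that setting were miR-335-3p, as before, and miR-483, whose sign had turned. On unnormalized values miR-335-3p and miR-675-3p lost their calls. The causes were not tested. Over all miRNAs called, 51.4% were higher, against 43.2% with quantile normalization, 35.7% with median centering and 69.2% with no normalization.

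Deviations of same-numbered samples had a correlation of 0.06 over 566 miRNAs. With 2 samples per reference, this value cannot settle whether the numbers pair the samples. The replicate block left 3 miRNAs higher and 2 lower and gave 3 hairpins, 6 higher and 6 lower probes. Signal over background limits most of these miRNAs: at values near the negative controls, a difference in RNA can be understated or missed, and the sign and call of a small difference can change with the normalization.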
